A study of Mus musculus with 8 samples.

Results

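The late state of c-Src induction, after 72 h, was compared with its early state, after 6 h, in Csk-deficient mouse embryonic fibroblasts. The comparison used 4 of the 8 arrays of the series, 2 at each time, and took in every probe that was well above background on both arrays of at least 1 of the times, which held for 27951 of 55681 non-control probes. All cells were Csk-/- and carried the vector pBKT2-c-Src, and c-Src expression was switched on with doxycycline at 1 µg/ml. The 6 h and 72 h cells both held induced c-Src and both received the agent, so that the groups differed in the length of induction. The remaining arrays, at 0 and 24 h, entered the estimate of the spread, and their levels are given below as values. RNA was labelled with Cy3 and read on 1-colour mouse expression arrays. The labels do not say whether the cells were 1 clone, or whether each duplicate array had a culture of its own. The p-values therefore rest on a spread among arrays that may be only technical. Hours of doxycycline, hours of culture and c-Src induction ran together, and each time also lay on its own row of the slide, so their effects cannot be told apart here.

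Src is a membrane-anchored tyrosine kinase that phosphorylates proteins of focal adhesions and receptor signalling, and Csk is the kinase that holds Src family members inactive by phosphorylating their C-terminal tail. Active Src feeds into the Ras and ERK cascade, which switches on immediate early genes such as Fos and Egr1 within the first hours of a stimulus. Signals that persist are met by feedback from induced phosphatases and Sprouty proteins, and Src-transformed fibroblasts are known for losing actin stress fibres and extracellular matrix.

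At 72 h the fibroblasts had lower levels of most listed immediate early transcription factors than at 6 h (12 of 18 tested). The same held for most listed chemokines (7 of 11) and matrix genes (16 of 21). Levels were higher for most listed genes of the ATF4 and amino acid response (18 of 22). Most listed aminoacyl-tRNA synthetases (15 of 20) and mitotic genes (14 of 21) were also higher. In bulk RNA such as this, fewer cells of a type and less RNA per cell cannot be told apart. Of 20425 genes, each represented by its brightest tested probe, 9183 were called (45.0%), with 4665 higher at 72 h (22.8%) and 4518 lower (22.1%). A gene was called when its adjusted p in limma (Benjamini-Hochberg over all 27951 probes) was under 0.05, and rose and fell are used below only of called genes. Falls were the larger changes, with 820 genes lower by at least 2-fold (4.01%) against 366 higher (1.79%), and 196 lower by at least 4-fold against 52 higher. These counts use fitted differences, and among genes well above background on at least 1 array of both times 685 were lower by at least 2-fold against 298 higher, and 126 by at least 4-fold against 22. Over all genes the median log2 difference was 0.01, and its median size, leaving out the sign, was 0.24. Separation of the 2 arrays of one time from the 2 of the other was common, since it held for 15732 genes (77.0%), called or not. Counted by probe, 44.1% of the 27951 were called and 76.1% were separated in this way.

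The split of calls depended on the scaling. With each array centred on its median in place of its 75th percentile, all probes shifted upwards by a median of 0.13, and the share of called genes that were higher went from 50.8% to 71.2%, with 6121 genes higher and 2478 lower. Leaving out any of the 6 h or 72 h arrays lowered the number of genes called in each direction. Levels are given as the log2 of the signal relative to the 75th percentile of its array. Differences are 72 h minus 6 h on the log2 scale with their standard error from the limma fit (n = 2 arrays at each time). This error draws on the spread within every time of the series and on that of other probes. It can therefore be large where the 6 h and 72 h duplicates lie close together. On the 4 arrays the share of spots well above background ran from 50.2% to 54.7%, and 0 spots were saturated. Levels across probes correlated at 0.9967 between the 6 h arrays and 0.9977 between the 72 h arrays, against 0.9843 to 0.9852 between times, as a description over probes of one platform.

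**Figure D1:**
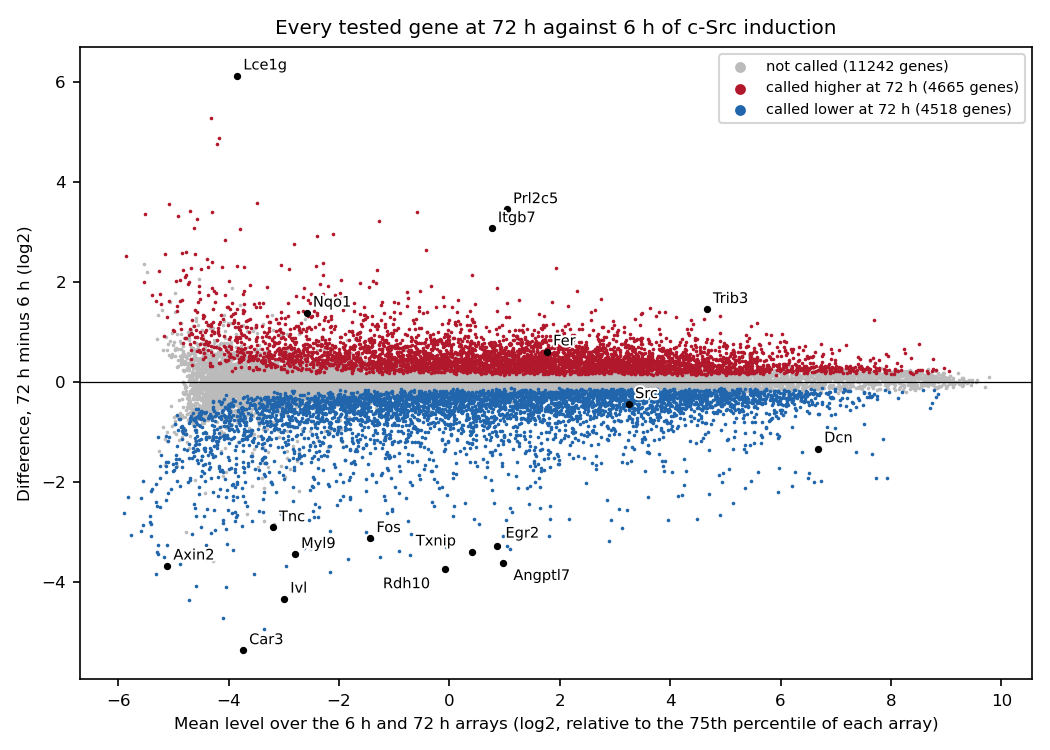
Each point is 1 of the 20425 tested genes, with its mean level over the 6 h and 72 h arrays on the horizontal axis (log2, relative to the 75th percentile of each array) and its difference, 72 h minus 6 h, on the vertical axis (log2). The 4665 genes called higher are red, the 4518 called lower are blue, the others are grey, and named genes are in black. Of the genes past 2-fold, 820 lie below the zero line and 366 above it. The difference of a gene that is not well above background at one of the times is a fitted value whose true size was not measured.

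Src itself was induced at both times and was somewhat lower at the later one. Its probe read 3.46 and 3.49 at 6 h and 3.03 and 3.02 at 72 h, a fall of 1.37-fold (difference -0.45 ± 0.06, adjusted p = 0.00253 by limma). On the 0 h arrays it read -1.35 and -1.19, and at 24 h 3.29 and 3.31. All 6 induced arrays therefore lay well above the 0 h arrays, and the 72 h arrays lay below the others of them. The probe matches the following sequence, shown because every value of Src rests on it. It lies in the coding sequence at chr2:157293336-157294267 in the mm9 build given by the array, a span longer than the probe, so it crosses an intron. The shares of the vector's transcript and of the endogenous one in its signal were not measured.
Src probe: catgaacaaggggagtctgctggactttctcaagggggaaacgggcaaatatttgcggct

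Csk, deleted in these cells, was too dim on each of the 8 arrays to be tested. Fer, a non-receptor tyrosine kinase related to Fes, rose from 1.45 and 1.48 to 2.03 and 2.11 (0.60 ± 0.09, adjusted p = 0.00416 by limma). Its other tested probes differed by 0.54 and 0.38. In the list of Src family and focal adhesion genes 8 of 21 tested members fell and 3 rose (median -0.17, or -0.08 without the first 72 h array), the rises being Fer, Yes1, a Src family kinase, and Itgb1, the beta1 integrin subunit (0.34, named after its value was seen). Yes1 (0.50 ± 0.13) lost its call when either 6 h array or the second 72 h array was left out. The largest fall of that list was Itgb3, the beta3 integrin subunit, which read -0.25 and -0.16 at 6 h and -1.67 and -1.57 at 72 h (-1.42 ± 0.07). Sh3pxd2b, an adaptor of podosomes that Src phosphorylates, fell by 0.81 and Tns3, a focal adhesion tensin, fell by 0.63. Fes fell by 1.13 ± 0.29, a call lost without the second 6 h array or the first 72 h array and with only the 6 h and 72 h arrays in the fit, and its difference was -0.45 after normexp background correction. The list held 5 falls under median scaling and 5 without the second 6 h array, and its rises numbered 1 without either 6 h array and 5 without either 24 h array or with only the 6 h and 72 h arrays in the fit.

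Genes known from skin, leukocytes and placenta were among the 15 rises picked by their fitted difference. A gene that was not well above background at one of the times is given as a lower bound and has no place in an order of sizes. Such a gene entered through its bright time only, so its call sets that time against readings not well above background. Its bound is the mean of the bright time over a dim mean. In the dim mean each array takes its lowest signal well above background or the probe's own signal, whichever is higher. The bounds here and in all later paragraphs hold for that floor only and are not minimums under other processing. With a common floor the log2 differences of Lce1g, Tmem255a and Car3 were 3.86, -3.77 and -3.59, smaller folds than their bounds below. After normexp correction they were 2.13, -1.91 and -1.80. Lce1g, a late cornified envelope protein of the skin barrier (chr3:92554289-92554348, mm9), read -7.19 and -6.62 at 6 h, not well above background, and -0.68 and -0.89 at 72 h, at least 17.7-fold higher. Lce1i of the same cluster was at least 9.17-fold higher. Dynap, a dynactin-associated membrane protein, was at least 8.58-fold higher and read -2.25 and -1.81 at 24 h. Klra4, a receptor of the Ly49 family of natural killer cells, was at least 9.47-fold higher, and its other probe differed by 1.95.

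Among rises measured at both times the prolactin-related proliferins led. Prl2c5, a secreted growth factor of placenta and of growing fibroblasts (chr13:13283943-13284002, mm9), read -0.71 and -0.66 at 6 h and 2.79 and 2.74 at 72 h, 10.9-fold higher (3.45 ± 0.08, adjusted p = 4.24e-05 by limma). It read -4.23 and -3.99 at 0 h and 3.21 and 3.19 at 24 h, so the 24 h arrays were the highest. Prl2c1 rose from -2.32 and -2.25 to 1.18 and 1.05 (3.40 ± 0.07, or 2.73 after normexp correction). These were the 2 tested members of a list of 4, and the other members had no probe under their name. Probes of the Prl2c, Lce1 and Klra families can bind transcripts of near-identical copies, so these values may belong to more than 1 family member.

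Itgb7, the beta7 integrin subunit of lymphocytes (chr15:102046450-102046509, mm9), rose from -0.78 and -0.75 to 2.29 and 2.31 (3.07 ± 0.08), and stood at 1.31 and 1.5 at 24 h. Acsbg1, an acyl-CoA synthetase of very long chain fatty acids, rose from -2.87 and -2.89 to 0.35 and 0.31 (3.20 ± 0.12, or 2.16 after normexp correction). Npy4r, a receptor of pancreatic polypeptide, rose by 2.95, and Maats1, a component of motile cilia, by 2.92 (after normexp 1.79 and 1.44). Pik3r5, a regulatory subunit of phosphoinositide 3-kinase gamma, was at least 4.75-fold higher. Lilrb4a, an inhibitory leukocyte receptor, was at least 3.09-fold higher and Duoxa1, a maturation factor of dual oxidases, at least 3.84-fold higher. Phex, an endopeptidase of bone, was at least 2.14-fold higher and Gtsf1, a germ cell protein of the piRNA pathway, at least 3.17-fold higher. All 15 kept their call under every alternative that could test them, while normexp correction, which compresses dim genes, placed them between 0.55 and 3.11.

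Of the 15 falls picked in the same way, 11 belonged to genes that were well above background at 6 h and not at 72 h. Car3, a carbonic anhydrase of muscle and fat (chr3:14871781-14871840, mm9), read -1.18 and -0.93 at 6 h and -6.90 and -5.96 at 72 h, at least 15.7-fold lower, and lay between at 24 h (-3.44 and -4.22). Tmem255a, a membrane protein, was at least 17.7-fold lower and Robo4, a guidance receptor of endothelium, at least 9.76-fold lower. Ecrg4, a secreted peptide precursor, was at least 5.60-fold lower. Rtn4rl1, a Nogo receptor homologue, was at least 10.6-fold lower, and Gabra3, a subunit of GABA-A receptors, at least 3.09-fold lower. Calml3, an epithelial calmodulin-like protein, was at least 3.87-fold lower and Mucl1, a small mucin, at least 3.07-fold lower.

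The other 4 falls stayed measurable. Angptl7, a secreted angiopoietin-like protein (chr4:147869984-147870043, mm9), fell from 2.80 and 2.78 to -0.96 and -0.74 (-3.64 ± 0.22, adjusted p = 2.09e-04 by limma). Rdh10, the dehydrogenase that starts retinoic acid synthesis (chr1:16122062-16122121, mm9), fell from 1.75 and 1.86 to -2.01 and -1.89 (-3.76 ± 0.17, or -3.07 after normexp correction), with -0.49 and -1.04 at 24 h. The 24 h arrays of both genes lay between those of the other times. Hic1, a transcriptional repressor, fell by 3.82 ± 0.30 and was well above background on 1 of the 72 h arrays. Lbhd2, a protein of little known function, fell by 3.56 ± 0.10. After normexp correction Hic1 differed by -2.06 and Lbhd2 by -2.31, and the 15 falls lay between -3.31 and -0.57, all still called.

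**Figure D2:**
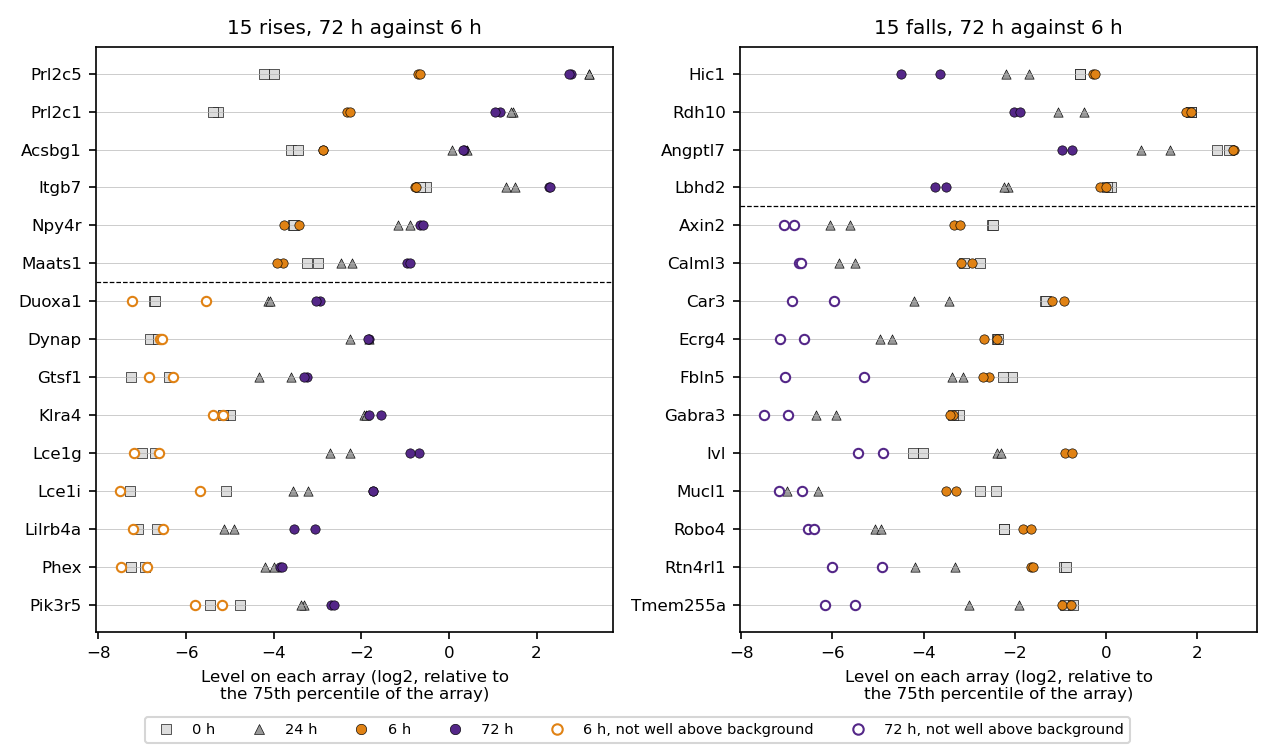
Levels of the 15 rises (left) and 15 falls (right) picked by their fitted difference on each of the 8 arrays, on a log2 axis relative to the 75th percentile of the array. Circles are the 6 h (orange) and 72 h (purple) arrays that were compared, and grey squares and triangles are the 0 h and 24 h arrays. Genes above the dashed line were well above background on at least 1 array of both times and are ordered by their difference, and those below it, with open circles at the time that was not well above background, are in alphabetical order. The 6 h and 72 h circles are apart for every gene, and the mean of the 24 h triangles lies between them for every gene but Prl2c5 and Prl2c1.

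Known pathways were followed through 38 gene lists with 638 genes, of which 564 were tested, 158 rose and 216 fell. The lists lean in both directions, and the counts below are read against 22.8% of all genes higher and 22.1% lower, and the medians against 0.01 for all genes. Median scaling raised each list median by 0.13, as it did that of all probes, and is named below where it turns a median given. It also changed counts, and not all of these are named below. Under it the falls numbered 13 in the matrix list, 10 among immediate early factors, 7 among TGF-beta targets and 6 among chemokines. There 8 cytokines and growth factors and 5 matrix proteases fell, and the rises numbered 10 in glycolysis and 14 in ribosome biogenesis. Without the filter on dim probes fewer members were called, for instance 7 rises in the G2/M list in place of 14, 7 in ribosome biogenesis in place of 11, 2 in p53 targets in place of 7 and 5 falls in the interferon list in place of 10. Transcription factor motifs were searched in RefSeq promoter windows (GRCm38.p6, from 250 bases before to 50 after a start site), which were present for 470 of the 638 genes and numbered 32851 for all genes. The motifs, on both strands and with overlaps allowed, were the AP-1 site TGANTCA, the cyclic AMP element TGACGTCA, the composite C/EBP-ATF site TGATGNAA, the TCF/LEF site ATCAAAG, the E-box CACGTG, the Ets core CCGGAA, the box CCAAT bound by NF-Y, the cell cycle element CHR with the letters TTTGAA, the CArG box bound by SRF and the NF-kB site. A match describes letters in the window and says nothing of binding. The list and motif pairs named below were picked from 380 after their shares were seen and are not tested. A list's share counts the windows of all its genes, whether or not they were bright enough to be tested.

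**Figure D3:**
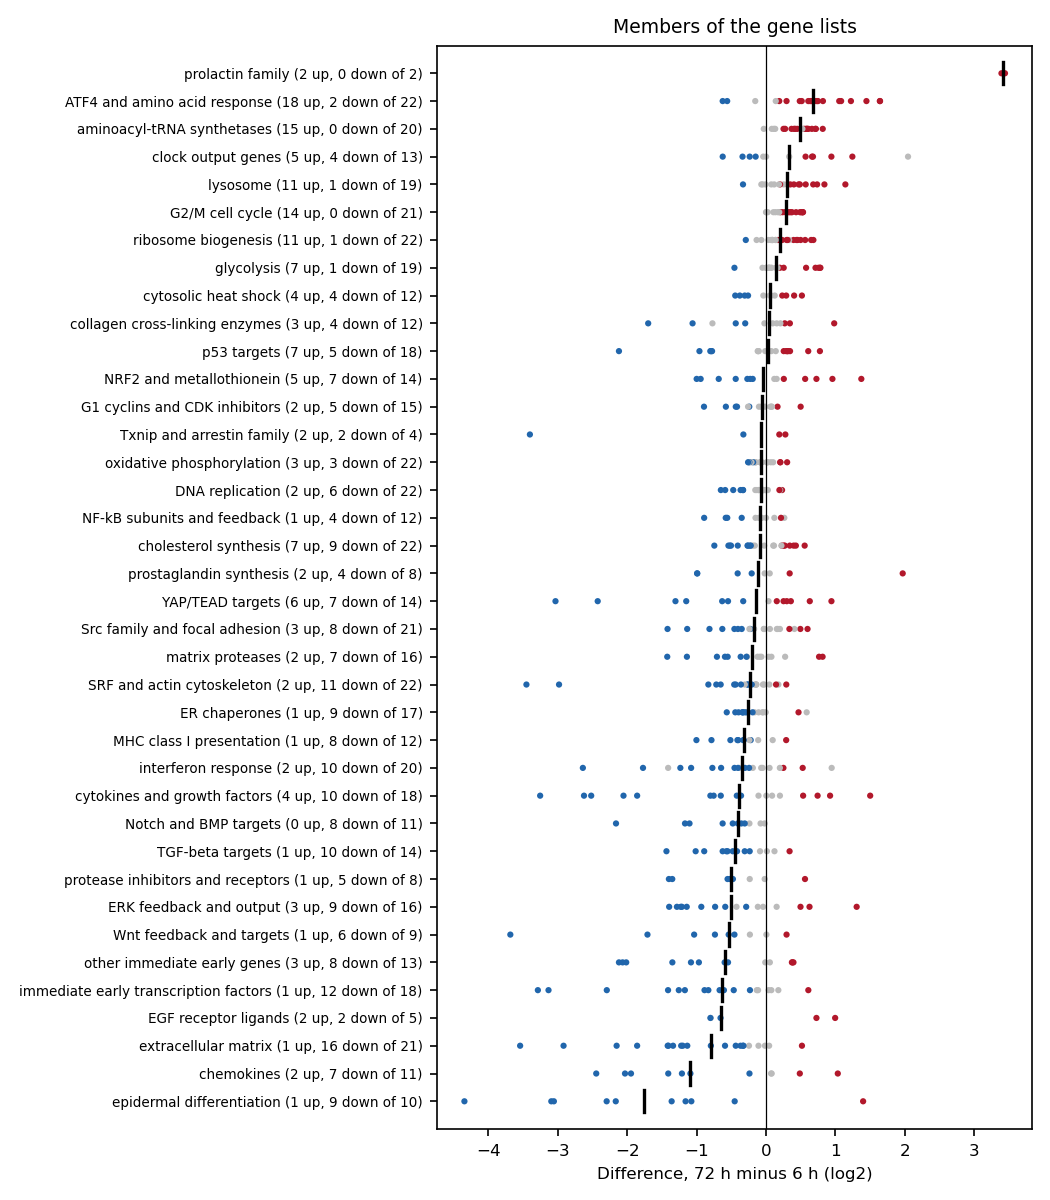
Differences, 72 h minus 6 h (log2), of the tested members of 38 gene lists, ordered by their median (black bar), with red points called higher, blue points called lower and grey points not called. The ATF4 and aminoacyl-tRNA synthetase lists lie to the right with medians of 0.67 and 0.49, and the chemokine and epidermal lists to the left with -1.09 and -1.76.

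Immediate early transcription factors were lower in the late state. Of 18 tested members 12 fell and 1 rose, with a median difference of -0.64. Egr2, a zinc finger factor induced by growth signals (chr10:67004798-67004857, mm9), read 2.5 and 2.52 at 6 h and -0.79 and -0.77 at 72 h, 9.77-fold lower (-3.29 ± 0.08, adjusted p = 4.24e-05 by limma). Fos, a subunit of AP-1, fell from 0.07 and 0.19 to -3.04 and -2.96 (-3.13 ± 0.13, or -2.11 after normexp correction). Egr1 fell from 5.29 and 5.29 to 2.95 and 3.05 (-2.29 ± 0.17), and Fosl2, another AP-1 subunit, from 4.29 and 4.33 to 2.86 and 2.94 (-1.41 ± 0.05). A second tested probe of Fosl2 differed by -0.11, so its probes disagree.

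At 0 h Egr2 stood at -2.24 and -2.03 and Fos at -2.65 and -2.25. The 72 h arrays therefore lay below the 0 h arrays for Fos and above them for Egr2. Myc, which drives growth and ribosome production, went the other way and rose from 1.93 and 2.05 to 2.59 and 2.61 (0.61 ± 0.07), with 0.52 and 0.59 at 0 h. The windows of this list held a CArG box in 22.73% (5 of 22), against 1.63% of all windows. They held an NF-kB site in 27.27% (6 of 22), against 4.51% of all windows.

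Other immediate early genes moved likewise, with 8 of 13 tested members lower and 3 higher, and a median of -0.59. Btg2, an antiproliferative regulator, fell from 2.53 and 2.39 to 0.33 and 0.35 (-2.12 ± 0.10). Arc, an activity-regulated cytoskeletal protein, fell by 2.07 ± 0.10 and Rhob, a small GTPase, by 1.35 ± 0.10. Zfp36, which destabilises cytokine mRNAs, fell from -2.30 and -2.16 to -3.90 and -4.58, where 1 of the arrays was well above background (-2.01 ± 0.24, or -0.76 after normexp correction). Gadd45a and Gadd45b, growth arrest and DNA damage proteins, rose by 0.38 and 0.40, and only 1 of the list's 3 rises was called when any of the 4 arrays was left out. Gadd45b lost its call in each of these cases.

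Feedback regulators of ERK split in a way that the list median of -0.51 hides. Of 16 members 9 fell and 3 rose. Dusp5, a nuclear ERK phosphatase, read -2.15 and -2.08 at 6 h and -3.66 and -3.37 at 72 h (-1.39 ± 0.15, or -0.62 after normexp correction). Spry4, a Sprouty inhibitor of Ras signalling, fell from -1.0 and -1.03 to -2.33 and -2.26 (-1.28 ± 0.10), and Dusp1 from 0.99 and 1.05 to -0.20 and -0.22 (-1.23 ± 0.07). Etv4, an Ets factor downstream of ERK, rose from 3.05 and 3.14 to 4.38 and 4.43 (1.31 ± 0.10), and Dusp4, another ERK phosphatase, from 2.48 and 2.55 to 3.16 and 3.12 (0.63 ± 0.05). At 0 h Etv4 read 0.90 and 1.01 and Dusp4 -0.26 and -0.27, below every induced array.

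Ligands of the EGF receptor family divided too, with 2 of 5 tested members higher and 2 lower. Nrg1, a neuregulin, rose from -0.58 and -0.34 to 0.59 and 0.48 (1.0 ± 0.12). Hbegf fell from 3.09 and 3.27 to 2.34 and 2.43 (-0.80 ± 0.10), and Ereg, epiregulin, fell by 0.65 ± 0.12, both from above their 0 h levels of 0.93 and 1.1 and -3.25 and -2.87. Tgfa rose by 0.73 ± 0.08 from a level well above background on 1 of the 6 h arrays, and this call was lost after normexp correction (0.13).

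**Figure D4:**
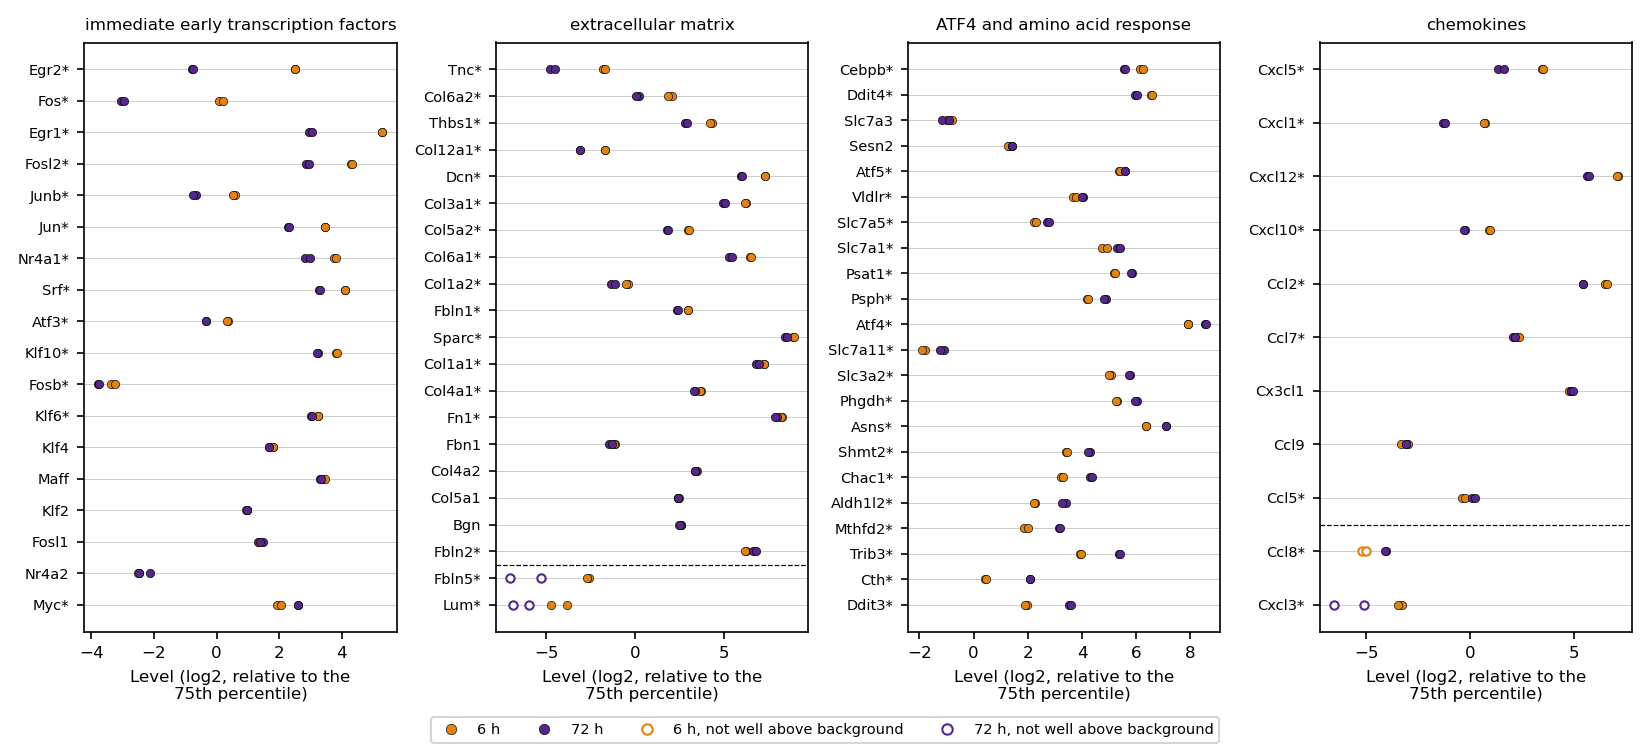
Levels of the tested members of 4 gene lists on the 6 h arrays (orange) and the 72 h arrays (purple), on log2 axes relative to the 75th percentile of the array, with called genes marked by an asterisk. Genes above a dashed line are ordered by their difference, and those below it, with open circles at the time that was not well above background, have only a bound. Of the genes measured at both times Egr2, Fos and Egr1 drop furthest among the immediate early factors, Tnc and Col6a2 among the matrix genes and Cxcl5 and Cxcl1 among the chemokines, while 18 of the 22 ATF4 genes are called higher.

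Most listed chemokines were lower at 72 h. Of 11 tested members 7 fell and 2 rose, with a median of -1.09 that was -0.51 after normexp correction and -0.24 without the filter on dim probes. Cxcl5, a chemokine that attracts neutrophils, read 3.47 and 3.52 at 6 h and 1.32 and 1.61 at 72 h (-2.03 ± 0.11, adjusted p = 1.61e-04 by limma). Cxcl1 fell from 0.69 and 0.68 to -1.29 and -1.23 (-1.95 ± 0.05) and stood at -1.63 and -1.56 at 0 h. Cxcl3 was at least 3.08-fold lower and not well above background at 72 h. Cxcl12, the constitutive stromal chemokine that retains blood cells, fell from 7.10 and 7.07 to 5.62 and 5.73 (-1.41 ± 0.09).

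Ccl5, a T cell chemokine, rose by 0.49 ± 0.10, a call lost without the first 6 h array or the second 72 h array. Ccl8, a monocyte chemokine, was at least 1.81-fold higher, and it lost its call after normexp correction (0.16). An NF-kB site was found in 60% of chemokine windows (6 of 10) against 4.51% of all. The Cxcl1 window is shown as an example chosen after its values were seen, with matches in capitals, where the Ets motif starts 101 bases before the start site and overlapping NF-kB sites start 71 and 70 bases before it. It is the 280 bases up to 30 after the start site of Cxcl1 (chr5:90890995-90891274, plus strand, GRCm38.p6).
Cxcl1: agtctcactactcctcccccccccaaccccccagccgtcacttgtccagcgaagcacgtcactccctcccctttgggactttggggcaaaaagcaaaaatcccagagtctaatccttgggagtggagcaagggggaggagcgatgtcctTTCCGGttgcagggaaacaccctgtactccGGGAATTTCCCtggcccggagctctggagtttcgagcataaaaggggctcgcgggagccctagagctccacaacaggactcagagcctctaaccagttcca

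Among cytokines and growth factors 10 of 18 tested members fell and 4 rose, with a median of -0.39. Counted only over probes well above background on all 4 arrays, 6 fell and the median was -0.05, and after normexp correction it was -0.22. Il33, a nuclear alarmin of stromal cells, fell from 2.90 and 2.90 to 0.36 and 0.40 (-2.52 ± 0.07, adjusted p = 4.24e-05 by limma). Its receptor Il1rl1 fell from -2.69 and -2.96 to -4.68 and -5.08, with 1 of the 72 h arrays well above background (-2.05 ± 0.15, or -0.65 after normexp correction). Fgf9 was at least 6.12-fold lower. Csf3, the granulocyte colony-stimulating factor, fell from -2.47 and -2.78 to -4.80 and -5.70, with 1 of the 72 h arrays well above background (-2.62 ± 0.33, or -0.75 after normexp correction). Fgf21 and Gdf15, stress-induced hormones, rose. Fgf21 went from 1.35 and 1.44 to 2.87 and 2.93 (1.5 ± 0.12), and Gdf15 from -3.33 and -3.79 to -2.66 and -2.61 (0.93 ± 0.17).

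NF-kB subunits and feedback inhibitors changed less. Of 12 tested members 4 fell and 1 rose, and the median of -0.09 turned to 0.04 under median scaling. Nfkbie, an inhibitor of the IkB family, fell by 0.89 ± 0.08 and Tnip1, a ubiquitin-binding inhibitor, by 0.58 ± 0.05. Bcl3, a nuclear IkB protein, fell by 0.56 ± 0.11 and Nfkbia by 0.35 ± 0.07. Without the first 72 h array neither Bcl3 nor Nfkbia was called, and Nfkbia was also not called without the second 6 h array. Nfkb2 rose by 0.22 ± 0.07, a call that 9 of 19 alternatives removed, among them leaving out any of the 6 h, 24 h or 72 h arrays.

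Prostaglandin enzymes moved apart. Of 8 tested members 4 fell and 2 rose, and the median of -0.11 turned to 0.02 under median scaling. Ptgs2, the inducible cyclooxygenase, fell from -0.49 and -0.37 to -1.38 and -1.47 (-0.99 ± 0.09) and stood at -3.73 and -3.85 at 0 h. Ptgs1, the constitutive cyclooxygenase, fell from 4.56 and 4.54 to 3.56 and 3.56 (-0.99 ± 0.06). Ptgds, a prostaglandin D synthase, rose from -2.57 and -2.65 to -0.63 and -0.65 (1.97 ± 0.13, or 1.31 after normexp correction). Pla2g4a, the phospholipase that frees arachidonic acid, rose by 0.34 ± 0.05, and Ptgis, prostacyclin synthase, fell by 0.41 ± 0.06.

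In the interferon list 10 of 20 tested members fell and 2 rose (median -0.34, or -0.20 after normexp correction), and 6 fell under median scaling. Gbp2, a guanylate-binding protein, fell from -1.70 and -1.78 to -4.24 and -4.52, with 1 of the 72 h arrays well above background (-2.64 ± 0.10, or -1.12 after normexp correction). Oasl2, an oligoadenylate synthetase-like protein, fell from -0.80 and -0.71 to -1.93 and -2.04 (-1.23 ± 0.11). Gbp3 fell by 1.77 ± 0.40, a call lost without the second 6 h array or the first 72 h array, and differed by -0.82 after normexp correction. Bst2, which tethers virus particles, rose by 0.53 ± 0.07, and Stat2 rose by 0.25 ± 0.06 with no call when any of the 4 arrays was left out.

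In the list of MHC class I presentation 8 of 12 tested members fell and 1 rose (median -0.32), and 5 fell under median scaling or when any of the 4 arrays was left out. Psmb9, a subunit of the immunoproteasome, fell from -1.88 and -1.77 to -2.76 and -2.89 (-1.0 ± 0.07). Tapbp, which loads peptides onto class I molecules, fell from 2.88 and 2.86 to 2.03 and 2.15 (-0.78 ± 0.06). H2-K1, a class I heavy chain whose probe may bind other heavy chains, fell by 0.51 ± 0.05, and Psme2, a proteasome activator, by 0.41 ± 0.05. A further probe of Psme2 differed by 0.33 in the other direction. B2m, the light chain, rose by 0.29 ± 0.05, a call lost without the first 72 h array.

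Among contractile and cytoskeletal genes controlled by SRF, Myl9 and Cnn1 fell most. Of 22 tested members 11 fell and 2 rose (median -0.23), with 5 falls under median scaling and 7 without the second 6 h array. Myl9, a regulatory light chain of myosin, read -1.04 and -1.11 at 6 h and -4.50 and -4.55 at 72 h, 10.9-fold lower (-3.45 ± 0.15, adjusted p = 9.55e-05 by limma). Cnn1, calponin, fell from -0.69 and -0.64 to -3.46 and -3.83 (-2.98 ± 0.12). After normexp correction Myl9 differed by -1.63 and Cnn1 by -1.70. Srf, the factor itself, fell from 4.11 and 4.11 to 3.26 and 3.29 (-0.83 ± 0.05) and read 2.72 and 2.75 at 0 h, while its other probe differed by -0.01.

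Tagln, transgelin, fell by 0.72 ± 0.21, a call lost in 8 of 19 alternatives, among them median scaling and leaving out any array of 6, 24 or 72 h. Tgfb1i1, a focal adhesion adaptor, rose by 0.29 ± 0.08 and Tagln2 by 0.15 ± 0.04, and leaving out any of the 4 arrays removed both calls. A CArG box lay in 36.36% of the list's windows (8 of 22) against 1.63% of all windows. The Myl9 window, one of those picked by the fitted difference among members of lists that moved together, holds a CArG box starting 161 bases before the start site and an NF-kB match starting 195 bases before it, both in capitals (chr2:156775214-156775493, plus strand, GRCm38.p6).
Myl9: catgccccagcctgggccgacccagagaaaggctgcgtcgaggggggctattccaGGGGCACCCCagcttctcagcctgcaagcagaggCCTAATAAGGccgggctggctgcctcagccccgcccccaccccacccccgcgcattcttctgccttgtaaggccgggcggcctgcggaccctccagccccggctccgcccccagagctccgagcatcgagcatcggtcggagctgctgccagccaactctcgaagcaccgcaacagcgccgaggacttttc

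Targets of YAP and TEAD, the effectors of the Hippo pathway, changed in nearly every member and in both directions. Of 14 members 7 fell and 6 rose, with 3 rises when the first 6 h array or either 72 h array was left out. The median of -0.14 turned to 0.04 over probes well above background on all 4 arrays. Ankrd1, a mechanosensitive ankyrin repeat protein, rose from 5.52 and 5.59 to 6.51 and 6.5 (0.94 ± 0.08) and read 3.02 and 3.00 at 0 h. Axl, a receptor tyrosine kinase, rose from 3.61 and 3.63 to 4.26 and 4.25 (0.63 ± 0.06). Tgfb2 fell from 2.04 and 1.99 to -0.40 and -0.43 (-2.42 ± 0.12), and F3, tissue factor, from 3.93 and 4.0 to 2.66 and 2.67 (-1.30 ± 0.05). Arhgef17, a guanine nucleotide exchange factor, fell by 1.15 ± 0.07, and Fgf1 was at least 4.17-fold lower.

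The extracellular matrix list had the largest share of falls among the lists of over 20 tested genes. Of 21 tested members 16 fell and 1 rose, with a median of -0.79, or -0.51 over probes well above background on all 4 arrays. Tnc, tenascin C, read -1.79 and -1.69 at 6 h and -4.79 and -4.53 at 72 h, where 1 array was well above background (-2.92 ± 0.26, or -1.07 after normexp correction). Col6a2, a chain of beaded collagen VI, fell from 2.11 and 1.89 to 0.21 and 0.07 (-1.86 ± 0.19, adjusted p = 9.48e-04 by limma). Fbln5, an organiser of elastic fibres, was at least 5.21-fold lower and not well above background at 72 h. Lum, the proteoglycan lumican, was at least 1.65-fold lower, a call lost without the second 6 h array, without the second 72 h array and with a common floor (-0.40). Fbln2, another fibulin, rose from 6.24 and 6.19 to 6.66 and 6.81 (0.52 ± 0.08).

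Fbln5 was picked for its windows in the same way, on a fitted difference whose size was not measured, and RefSeq lists a pair of start sites that differ in their matches. In the first window a CCAAT motif in capitals, starting 150 bases before the start site, was the only match of the motifs searched (chr12:101819090-101819369, minus strand, GRCm38.p6). In the second the only match was a C/EBP-ATF motif starting 124 bases before the start site (chr12:101818455-101818734, minus strand). Of the matrix windows 4.55% held the AP-1 motif, against 7.81% of all windows.
Fbln5, first start site: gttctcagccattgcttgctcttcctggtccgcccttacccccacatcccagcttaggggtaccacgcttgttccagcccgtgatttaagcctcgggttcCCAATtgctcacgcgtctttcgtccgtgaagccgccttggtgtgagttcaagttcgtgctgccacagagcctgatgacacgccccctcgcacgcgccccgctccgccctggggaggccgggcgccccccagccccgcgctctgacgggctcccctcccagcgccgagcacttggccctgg
Fbln5, second start site: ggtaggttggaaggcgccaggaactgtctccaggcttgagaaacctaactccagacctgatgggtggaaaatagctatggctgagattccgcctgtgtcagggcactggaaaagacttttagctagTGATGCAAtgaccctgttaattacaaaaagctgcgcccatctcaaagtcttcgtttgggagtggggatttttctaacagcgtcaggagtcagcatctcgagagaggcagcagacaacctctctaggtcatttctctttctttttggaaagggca

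Enzymes that cross-link collagen moved apart, with 4 of 12 lower and 3 higher. Lox, lysyl oxidase, fell from 2.29 and 2.34 to 0.61 and 0.62 (-1.70 ± 0.05), and Loxl1 from 3.07 and 3.06 to 2.01 and 2.01 (-1.06 ± 0.04). Loxl4 rose from -2.18 and -2.33 to -1.18 and -1.36 (0.98 ± 0.13), and P4ha2, a prolyl hydroxylase, by 0.35 ± 0.05. Loxl3 fell by 0.44 ± 0.13, a call that 9 of 19 alternatives removed, among them normexp correction, quantile normalization and leaving out any array of 6, 24 or 72 h. The median of 0.04 turned to -0.04 without the first 72 h array, and the count of falls was 2 when any of the 4 arrays was left out.

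Among matrix proteases 7 of 16 fell and 2 rose (median -0.20, or -0.12 without the filter). Plat, tissue plasminogen activator, fell from 2.06 and 2.10 to 0.73 and 0.60 (-1.42 ± 0.11), and Ctsk, cathepsin K, fell by 1.14 ± 0.22 (-0.50 after normexp correction). Adam8, a shedding protease, rose by 0.82 ± 0.07 and Mmp19 by 0.77 ± 0.12. Of their inhibitors and receptors 5 of 8 fell and 1 rose. Timp3, an inhibitor bound to matrix, fell from 6.01 and 6.01 to 4.64 and 4.67 (-1.35 ± 0.04). Serpinb2, a serine protease inhibitor, read -6.65 and -5.27 at 0 h, 0.43 and 0.29 at 6 h, 0.39 and 0.36 at 24 h and -1.0 and -1.08 at 72 h. Its fall (-1.40 ± 0.41) lost its call when any array of 6, 24 or 72 h was left out and without the filter on dim probes. The call was kept with only the 6 h and 72 h arrays in the fit and without either 0 h array. Plaur, the urokinase receptor, rose from 3.77 and 3.73 to 4.33 and 4.31 (0.56 ± 0.06).

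TGF-beta targets were lower in 10 of 14 tested members and higher in 1 (median -0.45). Tgfb3, a ligand of the pathway, fell from 4.31 and 4.34 to 2.87 and 2.92 (-1.43 ± 0.09), and Tgfbi, a secreted adhesion protein, from 2.82 and 2.76 to 1.79 and 1.77 (-1.01 ± 0.08). Pmepa1, a feedback inhibitor, fell by 0.89 ± 0.05. Tgif1, a corepressor of Smads, rose by 0.34 ± 0.07, a call lost without the first 6 h array or either 72 h array. Targets of Notch and BMP signalling fell in 8 of 11 tested members, the other 3 were not called, and 5 fell under median scaling. Hey1, a Notch effector, fell from 1.83 and 1.88 to -0.31 and -0.30 (-2.16 ± 0.12, adjusted p = 1.71e-04 by limma). Hes1 fell by 1.17 ± 0.11, the Notch ligand Jag1 by 1.1 ± 0.05 and Id1, a BMP target, by 0.62 ± 0.06.

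Wnt feedback genes and targets fell in 6 of 9 tested members and rose in 1 (median -0.54), and 8 further members were below background. Without the filter on dim probes the median was -0.27. Axin2, a scaffold that degrades beta-catenin and a common readout of Wnt signalling, read -3.34 and -3.20 at 6 h and -7.06 and -6.85 at 72 h, at least 3.37-fold lower. Its log2 difference was -1.37 with a common floor and -0.68 after normexp correction, smaller folds than that bound. Nkd1, an inhibitor of Dishevelled, fell from -2.93 and -2.86 to -4.85 and -4.35 (-1.71 ± 0.24, or -0.50 after normexp correction). Ccn4, a matricellular Wnt target, fell from 5.87 and 5.86 to 4.81 and 4.85 (-1.03 ± 0.05), and Lef1, a nuclear partner of beta-catenin, from 2.64 and 2.74 to 1.93 and 1.98 (-0.73 ± 0.06). Ccn5 rose by 0.30 ± 0.07, a call lost after normexp correction and without the second 6 h array or either 72 h array. The TCF/LEF motif was in 6.67% of the list's windows (1 of 15), against 3.73% of all windows. The Axin2 window was picked in the same way, on a fitted difference whose size was not measured, and its only match was a CCAAT motif on the other strand, in capitals, starting 14 bases after the start site (chr11:108920099-108920378, plus strand, GRCm38.p6).
Axin2: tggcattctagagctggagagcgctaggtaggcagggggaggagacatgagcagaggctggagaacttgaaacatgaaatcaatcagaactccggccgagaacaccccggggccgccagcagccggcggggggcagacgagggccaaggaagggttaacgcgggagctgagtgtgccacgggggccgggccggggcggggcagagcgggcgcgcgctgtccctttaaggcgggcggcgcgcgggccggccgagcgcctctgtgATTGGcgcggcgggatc

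The listed genes of epidermal differentiation fell in nearly every tested member. The list leaves out Lce1g and Lce1i, cornified envelope genes that rose. Of 5 tested late cornified envelope genes 2 rose and 3 were not called. Of 10 tested members 9 fell and 1 rose, and 10 more listed genes were below background. Members that were not well above background at 72 h entered only through their 6 h arrays. Counted only over probes well above background on all 4 arrays, 7 fell and 1 rose, and the median was -1.26. The median of -1.76 was -1.05 after normexp correction and -0.65 without the filter on dim probes. Ivl, involucrin, a cornified envelope precursor (chr3:92375367-92375426, mm9), read -0.91 and -0.74 at 6 h and -5.45 and -4.89 at 72 h, at least 18.4-fold lower. It read -4.02 and -4.24 at 0 h, below the 6 h arrays and above the 72 h arrays. Lor, loricrin, fell from 1.23 and 0.96 to -1.96 and -2.05 (-3.09 ± 0.17, or -2.47 after normexp correction). Krt17 was at least 3.69-fold lower. Sprr2g and Sprr2h, small proline-rich proteins of close sequence, went apart, since Sprr2g fell by 2.30 ± 0.08 and Sprr2h rose from -1.72 and -1.70 to -0.18 and -0.43 (1.40 ± 0.18). Sprr2h read -5.53 and -5.02 at 0 h and was highest at 24 h, at 0.77 and 0.93. The AP-1 motif was in 58.82% of the windows of all listed genes, tested or not (10 of 17), against 7.81% of all windows. The Ivl window was picked in the same way, and its AP-1 motif in capitals starts 116 bases before the start site (chr3:92573706-92573985, minus strand, GRCm38.p6).
Ivl: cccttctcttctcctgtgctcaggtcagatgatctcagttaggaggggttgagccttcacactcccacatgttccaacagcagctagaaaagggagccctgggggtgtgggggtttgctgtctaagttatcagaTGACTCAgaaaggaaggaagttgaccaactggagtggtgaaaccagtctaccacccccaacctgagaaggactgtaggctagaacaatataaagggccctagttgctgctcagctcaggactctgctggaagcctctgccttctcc

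Genes of the ATF4 and amino acid response rose nearly as a block. ATF4 is the factor translated when amino acids run short or the endoplasmic reticulum is stressed. Of 22 members 18 rose and 2 fell, with a median of 0.67. Ddit3, the stress factor CHOP, read 1.97 and 1.89 at 6 h and 3.54 and 3.61 at 72 h, 3.13-fold higher (1.65 ± 0.08, adjusted p = 1.40e-04 by limma). Cth, which makes cysteine, rose from 0.43 and 0.46 to 2.08 and 2.09 (1.64 ± 0.10). Trib3, a pseudokinase that restrains ATF4, rose from 3.91 and 3.96 to 5.38 and 5.39 (1.45 ± 0.10), and Mthfd2, a mitochondrial folate enzyme, from 1.87 and 2.03 to 3.15 and 3.19 (1.23 ± 0.09). The 24 h arrays of these 4 genes lay between the 6 h and 72 h arrays. Ddit4, an inhibitor of mTORC1, fell by 0.56 ± 0.05, and Cebpb, a partner of ATF4, by 0.62 ± 0.06.

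Aminoacyl-tRNA synthetases, which charge tRNAs and include many ATF4 targets, rose in 15 of 20 members and the other 5 were not called (median 0.49). Iars, for isoleucine, rose from 4.47 and 4.51 to 5.30 and 5.32 (0.82 ± 0.07), and Cars, for cysteine, from 4.65 and 4.64 to 5.35 and 5.38 (0.72 ± 0.05). Lars, for leucine, rose by 0.71 ± 0.08 and Sars, for serine, by 0.66 ± 0.06. The composite C/EBP-ATF motif was in 38.46% of synthetase windows (5 of 13) and 22.73% of ATF4 windows (5 of 22), against 3.97% of all windows. The Trib3 and Iars windows, chosen after their values were seen, show where it lies, in capitals. In Trib3 it starts 15 bases after the start site (chr2:152344031-152344310, minus strand) and in Iars 8 bases after it (chr13:49681880-49682159, plus strand), where the other capitals are CCAAT motifs and an E-box (GRCm38.p6).
Trib3: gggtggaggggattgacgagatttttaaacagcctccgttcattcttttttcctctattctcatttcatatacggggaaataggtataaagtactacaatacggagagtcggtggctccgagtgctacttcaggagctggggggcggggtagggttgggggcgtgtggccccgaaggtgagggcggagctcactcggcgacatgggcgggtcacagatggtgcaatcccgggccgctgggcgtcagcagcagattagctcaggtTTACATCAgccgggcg
Iars: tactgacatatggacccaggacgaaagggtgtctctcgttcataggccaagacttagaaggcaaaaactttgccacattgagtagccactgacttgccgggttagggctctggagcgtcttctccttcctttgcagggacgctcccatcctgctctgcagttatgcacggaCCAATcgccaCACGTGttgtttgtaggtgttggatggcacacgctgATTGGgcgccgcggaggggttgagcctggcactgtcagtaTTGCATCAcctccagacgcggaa

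Chaperones of the endoplasmic reticulum did not share that rise. Of 17 members 9 fell and 1 rose (median -0.27), and 3 fell under median scaling. Xbp1, a factor of the unfolded protein response, fell from 5.05 and 5.25 to 4.54 and 4.63 (-0.56 ± 0.08). Dnajc3 fell by 0.44 ± 0.07 and Pdia3, a disulphide isomerase, by 0.39 ± 0.04. Herpud1, a component of protein degradation, rose by 0.47 ± 0.05. Heat shock genes split with 4 of 12 higher and 4 lower, and 1 lower under median scaling. The rises were led by Hspd1 and Hspe1, the mitochondrial chaperonin pair, at 0.52 ± 0.06 and 0.41 ± 0.06, and the falls by Bag3 (-0.44 ± 0.05) and Hspb8 (-0.38 ± 0.06), which act together in selective autophagy, with no call for Hspb8 under median scaling. The count of 4 rises was 2 without either 6 h array or the second 72 h array.

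Mitotic genes rose modestly and in 1 direction, while replication genes did not. In the G2/M list 14 of 21 members rose and the other 7 were not called (median 0.29). Bub1, a checkpoint kinase, read 2.09 and 2.14 at 6 h and 2.66 and 2.64 at 72 h (0.53 ± 0.07, adjusted p = 0.0019 by limma). Ube2c, the ubiquitin-conjugating enzyme of the anaphase-promoting complex, rose from 3.75 and 3.86 to 4.27 and 4.39 (0.52 ± 0.10). Cenpe, a kinetochore motor, rose by 0.51 ± 0.07 and Cenpf by 0.53 ± 0.11, the latter with no call without the second 72 h array. These are changes of under 2-fold. CCAAT was in 94.44% of G2/M windows (17 of 18) against 37.41% of all, and the CHR motif in 77.78% (14 of 18) against 17.89%. The CCAAT share was not particular to rising lists, since it was 93.33% (14 of 15) for the endoplasmic reticulum chaperones, where 9 of 17 members fell.

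The Ube2c window, chosen after its values were seen, holds 6 CCAAT motifs, of which a pair overlaps, and a CHR motif starting 29 bases before the start site, all in capitals with an Ets and a TCF/LEF match (chr2:164769679-164769958, plus strand, GRCm38.p6).
Ube2c: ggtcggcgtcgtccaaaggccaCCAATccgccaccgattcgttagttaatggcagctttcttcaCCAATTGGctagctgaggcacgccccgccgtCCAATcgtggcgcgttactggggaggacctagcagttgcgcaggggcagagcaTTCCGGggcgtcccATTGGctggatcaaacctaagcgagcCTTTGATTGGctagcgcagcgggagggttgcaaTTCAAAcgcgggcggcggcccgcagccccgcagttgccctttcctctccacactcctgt

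Of the 22 tested DNA replication genes 6 fell and 2 rose, 3 fell under median scaling, and the median of -0.08 turned to 0.05 there. Rrm2, which makes deoxynucleotides, fell from 5.26 and 5.30 to 4.60 and 4.65 (-0.65 ± 0.05). Tyms, thymidylate synthase, fell by 0.59 ± 0.09 and Cdc6, an origin licensing factor, by 0.47 ± 0.05 (-1.24 at its other probe). Gins2, of the replicative helicase, fell by 0.37 ± 0.08, with no call under median scaling or without the first 6 h array or either 72 h array. Cdt1 and Mcm10, a licensing and an initiation factor, rose by 0.23 and 0.19, calls that leaving out any of the 4 arrays removed. Among G1 cyclins and CDK inhibitors 5 of 15 fell and 2 rose, 2 fell under median scaling, and the median of -0.06 turned to 0.07 there. Cdkn2c, an inhibitor of CDK4 and CDK6, fell from 3.04 and 2.87 to 2.09 and 2.03 (-0.89 ± 0.08), and Ccnd3, a D cyclin, from 5.52 and 5.57 to 4.94 and 4.99 (-0.58 ± 0.05). Cdkn2b fell by 0.43 ± 0.06, a call lost under median scaling. Rb1, the retinoblastoma protein, rose by 0.50 ± 0.07, and Ccnd2 by 0.17 ± 0.04, a call that leaving out any of the 4 arrays removed.

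Targets of p53 went both ways, with 7 of 18 higher and 5 lower, and the median of 0.03 turned to -0.01 without the first 6 h array. After Btg2, the largest falls were Sesn1, a stress-induced inhibitor of mTORC1, from 3.40 and 3.40 to 2.40 and 2.49 (-0.96 ± 0.07), Trp53inp1, a mediator of autophagy, by 0.80 ± 0.08, and the death receptor Fas by 0.79 ± 0.06. A second probe of Trp53inp1 differed by -0.04. The largest rises, named after their values were seen, were Bbc3, the cell death protein PUMA, by 0.78 and Ccng1, cyclin G1, by 0.61.

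Lysosomal genes rose in 11 of 19 tested members and fell in 1 (median 0.31). Npc1, which exports cholesterol from lysosomes, rose from -2.11 and -2.24 to -0.93 and -1.12 (1.15 ± 0.12), and Mcoln1, a lysosomal calcium channel, from 4.03 and 4.09 to 4.91 and 4.89 (0.84 ± 0.06). Hexa, a degradative enzyme, rose by 0.74 ± 0.08. Tfeb, the transcription factor of lysosome formation, fell by 0.33 ± 0.05, a call lost under median scaling. Ribosome biogenesis genes rose in 11 of 22 members and fell in 1 (median 0.20). Wdr12 rose from 2.87 and 2.85 to 3.57 and 3.52 (0.68 ± 0.05) and Wdr43 by 0.65 ± 0.06, with smaller differences of 0.33 and 0.14 at their second probes. Utp20 rose by 0.57 ± 0.07 and Rrp9 by 0.50 ± 0.07. Pes1 fell by 0.29 ± 0.06, a call lost under median scaling and without the second 6 h array, and its other probe differed by 0.39.

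In glycolysis 7 of 19 tested members rose and 1 fell (median 0.15, or 0.09 after quantile normalization). Aldoa, aldolase, rose from 8.14 and 8.13 to 8.88 and 8.90 (0.76 ± 0.06), Pfkl, a phosphofructokinase, from 3.79 and 3.80 to 4.56 and 4.59 (0.79 ± 0.07) and Pdk1, which restrains pyruvate oxidation, by 0.78 ± 0.06. Eno2 rose by 0.71 ± 0.15, a call lost without the first 6 h array or the second 72 h array. Pfkfb3, which makes the activator of phosphofructokinase, fell by 0.45 ± 0.05. Of 22 oxidative phosphorylation genes 3 rose and 3 fell, 16 were not called, and the median of -0.07 turned to 0.05 under median scaling. Leaving out either 72 h array left at most 1 of the rises and 0 of the falls called. The largest of them was Ndufs1 of complex I at 0.31 ± 0.07, a call lost without the first 6 h array or the second 72 h array.

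Cholesterol synthesis genes went both ways, with 9 of 22 lower and 7 higher. The median of -0.09 turned to 0.04 under median scaling, where 5 fell, and 5 fell without the first 72 h array. The rises numbered 3 without the first 6 h array, 4 without the first 72 h array and 3 without the second. Stard4, a sterol carrier, fell by 0.74 ± 0.08 and its other probe differed by -0.06, while Dhcr7 and Hmgcs1, synthesis enzymes, fell by 0.54 ± 0.07 and 0.52 ± 0.06. Lss, lanosterol synthase, rose by 0.56 ± 0.10.

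Txnip, an arrestin-like protein that limits glucose uptake, was among the largest falls of well expressed genes. It read 2.17 and 2.05 at 6 h and -1.17 and -1.41 at 72 h, 10.6-fold lower (-3.40 ± 0.15, adjusted p = 1.15e-04 by limma), and 3.71 and 3.56 at 0 h, so the order of times ran downwards. Its second probe differed by -3.08. Of its relatives Arrdc2 rose by 0.28 ± 0.05, with no call without the first 6 h array or the second 72 h array. Arrdc3 fell by 0.33 ± 0.10 and Arrdc1 rose by 0.19 ± 0.06, and of the 19 alternatives 9 removed the call of Arrdc3 and 8 that of Arrdc1, among them leaving out either 72 h array or either 0 h array.

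Oxidative stress genes under NRF2 and metallothioneins divided into 5 rises and 7 falls among 14, with 3 falls under median scaling, where the median of -0.03 turned to 0.09. Nqo1, a quinone reductase, rose from -3.19 and -3.35 to -1.91 and -1.88 (1.38 ± 0.07, or 0.69 after normexp correction), and Mt2, a metallothionein, from 5.23 and 5.29 to 6.20 and 6.24 (0.96 ± 0.13). Slc48a1, a heme transporter, fell from 5.99 and 6.03 to 4.98 and 5.04 (-1.0 ± 0.05), and Gsta4, a glutathione transferase, by 0.94 ± 0.09. Among clock output genes 5 of 13 rose and 4 fell (median 0.34, or 0.15 after normexp correction, 0.17 over probes well above background on all 4 arrays and 0.18 without the first 72 h array), with 2 falls under median scaling or when any of the 4 arrays was left out. Dbp, a clock-driven factor, rose from 2.72 and 2.75 to 4.0 and 3.96 (1.25 ± 0.07) and Ciart, a clock repressor, by 0.94 ± 0.09. The nuclear receptors Nr1d2 and Nr1d1 rose by 0.68 ± 0.07 and 0.66 ± 0.09. Per2 fell by 0.62 ± 0.07 and Per1 by 0.34 ± 0.06. The hour of day at which each sample was taken is not in the labels.

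Fibroblast markers bore out the label of the cells in part and were lower at 72 h. The summed linear signal of the 13 listed markers, relative to each array's 75th percentile, was 736.5 and 727.7 at 6 h and 558.1 and 577.3 at 72 h. Of 10 tested markers 8 fell and 1 rose, and Thy1, Fap and Prrx1 stayed dim on each of the 4 arrays. Pdgfra, a growth factor receptor of mesenchyme, fell from 3.02 and 3.12 to 1.53 and 1.62 (-1.49 ± 0.09), and Pdgfrb from 1.29 and 1.29 to -0.03 and 0.05 (-1.28 ± 0.10). Dcn, the proteoglycan decorin, fell from 7.36 and 7.33 to 5.96 and 6.05 (-1.34 ± 0.25), and Vim, vimentin, rose from 6.74 and 6.76 to 7.42 and 7.35 (0.63 ± 0.06).

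Markers of other cell types had lower summed signals than the fibroblast list, and several were well above background. The summed signal of 12 epithelial markers was 4.142 and 4.036 at 6 h and 5.533 and 5.382 at 72 h, of which 2 of 7 tested rose and 2 fell, and Cdh1 and Epcam were not well above background. Krt8 and Krt18 rose by 0.75 ± 0.11 and 0.57 ± 0.10, Krt14 fell by 1.57 ± 0.14, and Esrp1 fell by 0.51 ± 0.11 with no call without the first 6 h array or the second 72 h array. The macrophage sum ran from 17.51 to 18.39 over the 4 arrays, with Ptprc, Adgre1, Lyz2, Aif1 and Fcgr1 not well above background. Most of that sum came from Itgam, an integrin subunit of myeloid cells, whose probe read 3.98 and 3.99 at 6 h and 3.96 and 4.02 at 72 h and was not called. In the same list Cd68 rose by 1.5 ± 0.17 (0.42 after normexp correction) from a level well above background on 1 of the 6 h arrays, and Csf1r fell by 0.45 ± 0.08. The endothelial sum ran from 2.424 to 2.677, with Cdh5, Tie1, Emcn and Cldn5 not well above background. There Eng rose by 0.54 ± 0.14, a call that leaving out any of the 4 arrays removed, and Tek was at least 1.73-fold lower, with no call under a common floor (-0.41). The adipocyte sum was 5.451 and 5.497 at 6 h and 4.08 and 4.17 at 72 h with Adipoq and Plin1 not well above background, where Fabp4 rose by 1.70 ± 0.13, Lpl fell by 1.12 ± 0.06 and Pparg fell by 0.41 ± 0.06, a call lost under median scaling. The skeletal muscle sum was 3.418 and 3.614 at 6 h and 2.638 and 2.596 at 72 h with Myod1 and Myog not well above background, where Tnnt1 fell by 2.31 ± 0.21 (-1.49 after normexp correction) and Tnnc2 by 1.04 ± 0.11. The part of these levels in the gene lists above was not tested.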

How the data were processed

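Total RNA of 8 samples (4 times, 2 arrays each) was labelled with Cy3 and hybridised to 1-colour mouse arrays, per the labels' protocols. The deposited value of each spot is the processed signal, an intensity on a linear scale that Feature Extraction had background-subtracted, per the file headers. Those headers give version 10.5.1.1 and the mm9 build, and 10.7.3.1 is the version in the submitters' processing notes. All arrays lay on 1 slide in 1 scan, with time following the slide row and replicate number the slide column.

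Each array's intensities were divided by the 75th percentile of its 59305 non-control spots (370.3 to 385.5 on the 4 arrays), and log2 was taken. Outlier spots were left out, and spots of a probe averaged. This touched a 6 h or 72 h value of 5 probes. The number of arrays limits the precision. Probes well above background on both arrays of 6 h or of 72 h entered limma 3.58.1 (R 4.3.3). All 8 arrays and 4 group means entered the fit (4 residual degrees of freedom, prior 1.77), with Benjamini-Hochberg adjustment and a threshold of 0.05. The median standard error was 0.0805. The brightest tested probe stood for its gene, and of the 20425 genes 7580 have names of clones or loci. Names came from RefSeq by accession for 26687 probes, by symbol for 2536 and by synonym for 474, and 25984 kept the name in the file. Of 3864 genes with several tested probes, 158 had probes called in opposite directions.

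The comparison and the gene lists were chosen with earlier results of these data known. Genes are named by a rule: Src, Csk and Fer, the 15 largest called rises and falls with a gene name, up to 4 called members of each list with the largest differences, and up to 2 that went against the list. Some genes that the rule picks are not reported here. Both choices use fitted differences, which have no order where a time was not well above background. Promoter windows shown by rule are those of the 4 genes with the largest differences in lists with at least 50% of tested members called 1 way. The script was tested on simulated data. Alternatives were normexp background correction (offset 50), median scaling, quantile normalization, a common floor, other filters, outliers kept, the deposited value table, an intensity trend, fewer arrays in the fit, a replicate block and leaving out each array. The value table, with intensities rounded to 3 significant digits, differed by at most 0.497%. Python 3.11.15 with pandas 2.3.3 and matplotlib 3.10.9 served for tables and figures.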

Additional observations from a re-analysis of the deposited data

How the results depend on the processing

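Src kept its fall under every alternative run, from -0.47 with quantile normalization to -0.33 with median scaling, and from -0.47 to -0.44 with any array left out. Without the filter on dim probes 3177 probes were called higher and 3603 lower (2353 and 2649 genes) and the median difference of all probes was -0.08, over 55681 probes of which many are dark. Under median scaling that median was 0.13 and 3398 probes and 2478 genes were called lower. With an array left out, 4084 to 6288 probes and 3031 to 4697 genes were called higher and 4364 to 6067 probes and 3217 to 4495 genes lower. The lone array is then assumed to vary like those of the other times. Fewer probes and genes were called in each direction without either 6 h array and without either 72 h array. Replicate numbers, which follow the slide column, were not used to pair the samples in the main fit. The differences between replicates correlated weakly but positively between times, at 0.063 to 0.1511. The first array had the larger share of spots well above background, 54.7% against 50.2% at 6 h and 53.7% against 50.3% at 72 h. An effect of the slide column was not tested by itself. With the replicate block 6595 probes were called higher and 6372 lower (4925 and 4737 genes, against 4665 and 4518 without it). Of 226 called genes named by rule, 151 kept their call in all 19 alternatives, 31 kept it in 18 and were not tested over probes well above background on all 4 arrays, 44 lost it in at least 1 and 0 changed direction. Of 1760 list counts under alternatives 1576 stayed within 1.5 times the value given, and of 836 list medians 140 moved by more than 0.0508, the median SD of a gene between the 6 h arrays. Normexp correction with an offset of 50 compresses dim genes by construction. It brought the 15 rises picked by their fitted difference to between 0.55 and 3.11 and the 15 falls to between -3.31 and -0.57. The size given for a change in a dim gene therefore depends on the processing.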

Other observations

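Further gene families were looked at after their values were seen, and no test was made of them. Genes of retinoic acid synthesis and retinol uptake besides Rdh10 were among the large falls. Stra6, the receptor that takes up retinol, read 0.97 and 1.09 at 6 h and -2.40 and -2.48 at 72 h (-3.47 ± 0.13), and Aldh1a2, the main retinaldehyde dehydrogenase, was at least 3.42-fold lower. Of 16 tested genes of retinoid metabolism and its receptors 8 fell and 5 rose, with the receptor Rxra higher by 1.30 ± 0.11 and Rara lower by 0.94 ± 0.06 at 72 h. Of 10 tested Wnt ligands 7 fell and the other 3 were not called (median -0.76). Wnt10a was at least 2.09-fold lower, and Wnt5a fell from -0.68 and -0.62 to -2.37 and -2.24. Of 7 tested class 3 semaphorins, secreted guidance cues, 6 fell, among them Sema3f from 4.37 and 4.37 to 3.18 and 3.26.

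Chromatin proteins of fetal and tumour cells rose, with Hmga2 going from 3.20 and 3.22 to 4.58 and 4.65 (1.40 ± 0.07) and Hmga1 from 7.04 and 7.13 to 8.28 and 8.35 (1.23 ± 0.07). Of 25 tested keratins 13 fell and 2 rose, and Krt15, a keratin of basal epidermis, fell from 2.70 and 2.70 to -0.65 and -0.54. Of 26 tested collagen chains 16 fell and 4 rose, with Col8a1 and Col7a1 the largest rises at 1.06 ± 0.07 and 1.02 ± 0.11. Among alpha glutathione transferases, whose probes may share transcripts, Gsta1 was at least 2.95-fold higher and Gsta2 at least 3.49-fold higher, while Gsta3 fell by 0.61 ± 0.07 and Gsta4 by 0.94 ± 0.09. Of 4 tested Klra genes 3 rose, and of 5 tested late cornified envelope genes Lce1g and Lce1i rose. H19, an imprinted long non-coding RNA of fetal tissue, read -0.81 and -0.87 at 6 h and -4.15 and -4.17 at 72 h, a fall of 3.32 ± 0.08.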
